A study of Mus musculus with 9 samples.

Results

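The 6 genes described here are Oas1a, Oas1g, Oas2, Oas3, Oasl1 and Oasl2, the members of the mouse oligoadenylate synthetase family chosen by name among the 21959 genes of the deposited count table. RNA was sequenced from DC2.4, an established mouse dendritic cell line, in 9 libraries that form 3 groups of 3, labelled OMVSSDC, ZJDC and PBSDC. The study describes treating these cells with engineered extracellular vesicles, named EMV@SS, and looking for changes in immune genes. No dose, time, genotype or allele is labelled, the names OMVSS and ZJ are not spelled out, and which group received the named vesicles is not said. PBSDC was taken as the control because PBS usually means phosphate-buffered saline.

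Oligoadenylate synthetases detect double-stranded RNA, a sign of viral infection, and then join ATP into short chains linked in an unusual way. These oligoadenylates act as an alarm signal inside the cell that slows virus growth and protein synthesis. The genes are classical targets of interferons and are induced in dendritic cells and macrophages when these sense microbes. Mice carry several copies of Oas1, of which Oas1a and Oas1g encode active enzymes. Oas2 and Oas3 encode larger proteins built of repeated synthetase units. Oasl1 and Oasl2 encode synthetase-like proteins that end in ubiquitin-like domains. Mouse Oasl1 makes no oligoadenylates and is known for holding back translation of Irf7 mRNA, while mouse Oasl2 has kept synthetase activity.

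All 6 genes lie on chromosome 5 in the deposited table, for which no genome build was named. Oas1a (ENSMUSG00000052776), Oas1g (ENSMUSG00000066861), Oas2 (ENSMUSG00000032690) and Oas3 (ENSMUSG00000032661) belong to a cluster of 10 Oas genes between positions 120868398 and 121059715. Oasl1 (ENSMUSG00000041827) and Oasl2 (ENSMUSG00000029561) are neighbours between 115034997 and 115075974. Oas1a and Oas1g are close to identical. Their longest protein-coding transcripts in GENCODE M21 matched at 97.7% of 1859 aligned bases, and 57.6% of the 50-base stretches of Oas1a also occurred in other Oas genes. No 50-base stretch of Oas2, Oas3, Oasl1 or Oasl2 did. No source says how reads that fit both were assigned, so the split between Oas1a and Oas1g is uncertain, and their sum is given beside them. In GENCODE M21 a gene named Gm13822 runs antisense to Oasl1 and one named Gm43068 overlaps Oas2 on the other strand. Whether counting used the strand is not stated, so reads from these could not be told apart.

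Promoter windows were available from RefSeq (build GRCm38.p6) for 5 of the 6 members, the exception being Oas2. Each spans 250 bases before to 50 bases after the annotated start. They were searched for the core of the interferon-stimulated response element, which is GAAA, then any 2 bases (NN), then GAAA, the DNA motif through which interferons switch on many of their target genes. Both strands were read, and overlapping matches were counted. The motif occurred in 3 of the 5 members' windows and in 3.44% of 32851 windows of all genes. Among these 3 are Oas1a and Oas1g, whose windows are much alike, so they are not separate occurrences. The 250 bases before the start are printed for 4 members, in capitals where the motif lies: the Oas1a and Oas1g pair because it carries the motif at nearly the same place, Oas3 because it carries a single match, and Oasl1 because it has the largest increase of the family and no match. They are chr5:120907526-120907775 (minus strand), chr5:120887614-120887863 (minus strand), chr5:120777660-120777909 (minus strand) and chr5:114922990-114923239 (plus strand), each 5′ to 3′ along the gene.
Oas1a: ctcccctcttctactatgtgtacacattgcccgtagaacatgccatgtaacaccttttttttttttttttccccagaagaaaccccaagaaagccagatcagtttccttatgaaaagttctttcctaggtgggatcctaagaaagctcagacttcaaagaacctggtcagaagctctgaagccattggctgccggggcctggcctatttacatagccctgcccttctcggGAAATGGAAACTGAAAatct
Oas1g: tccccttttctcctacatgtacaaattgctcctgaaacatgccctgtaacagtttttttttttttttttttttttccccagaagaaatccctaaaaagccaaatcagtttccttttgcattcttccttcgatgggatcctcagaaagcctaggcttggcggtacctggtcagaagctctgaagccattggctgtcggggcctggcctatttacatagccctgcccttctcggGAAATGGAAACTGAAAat
Oas3: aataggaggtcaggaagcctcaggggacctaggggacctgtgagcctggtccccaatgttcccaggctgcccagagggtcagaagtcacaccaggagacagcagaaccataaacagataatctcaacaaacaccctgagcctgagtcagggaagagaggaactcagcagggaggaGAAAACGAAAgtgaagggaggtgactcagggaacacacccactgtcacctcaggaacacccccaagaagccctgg
Oasl1: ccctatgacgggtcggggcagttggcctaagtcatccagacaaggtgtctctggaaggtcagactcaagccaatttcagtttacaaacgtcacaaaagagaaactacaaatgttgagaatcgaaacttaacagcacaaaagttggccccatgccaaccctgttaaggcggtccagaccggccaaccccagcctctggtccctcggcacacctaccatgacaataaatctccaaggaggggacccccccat

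Oas1a held 2 overlapping matches, from base -20 to -11 and from -14 to -5 before the start. Oas1g held the same pair of matches from -18 to -9 and from -12 to -3, and the printed stretches of the pair matched at 212 of 244 aligned bases. Oas3 had its match from -75 to -66. The windows of Oasl1 and Oasl2 held none, which says only that these letters are not in these 300 bases. The core of the gamma-activated site, TTCNNNGAA, reads the same on both strands. It occurred once, in Oas1a from -98 to -90, against 8.3% of all windows.

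**Figure D1:**
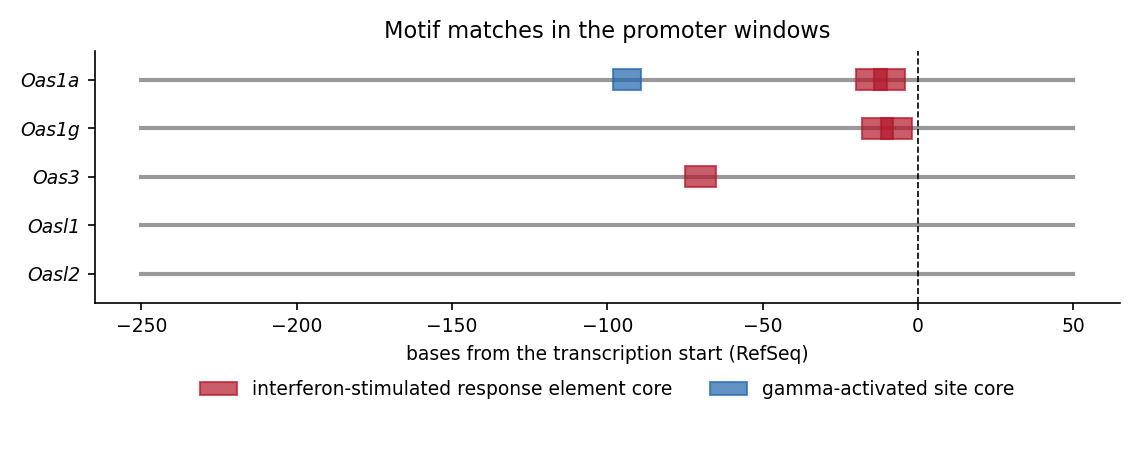
Positions of motif matches in the RefSeq promoter windows of 5 members, in bases from the annotated transcription start (dashed line). Oas1a and Oas1g each have 2 overlapping matches of the interferon-stimulated response element core within 20 bases of the start, Oas3 has 1 further upstream, and Oasl1 and Oasl2 have none.

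Library totals ranged from 12784931 to 18388959 counts, and 11568 genes passed the filter on low counts, all 6 members included. Levels are given in CPM, read counts brought to 1 common library size, after TMM scaling, which corrects for differences in library composition. All 12 listed markers of dendritic and myeloid cells had counts in each group, at very different levels. Ptprc stood at 775 to 907, Csf1r at 554 to 1131 and Cd74 at 411 to 739 mean CPM per group. Spi1, Itgam, Irf8 and Cd86 lay between 119 and 422 mean CPM. Itgax (2.05 to 4.31), Zbtb46 (3.42 to 8.04) and Batf3 (2.97 to 6.25 mean CPM) were low. Flt3 had at most 4 counts and the MHC class II gene H2-Ab1 at most 7 in any library. Replicates 1 and 2 of OMVSSDC stood apart from its replicate 3. As chi-square per degree of freedom over all counts, replicates 1 and 2 differed by 1.87, and each differed from replicate 3 by 59.3 and 61.8. Pairs within the other groups differed by 2.51 to 8.59, and against each of the ZJDC libraries the library labelled OMVSSDC replicate 3 reached 7.43 to 10.2. Its counts thus lay closer to ZJDC than to the other libraries of its own label, and the reason was not tested. Tests of the members and of the named pathway genes in OMVSSDC against PBSDC, and of the members in OMVSSDC against ZJDC, are therefore also given without its replicate 3 and within the other 7 libraries, where replicate 3 alone stands for OMVSSDC. The first of these contains no OMVSSDC library outside replicates 1 and 2. What the OMVSSDC group received and whatever else sets these 2 libraries apart cannot be told apart there. The second has no spread of its own for OMVSSDC and borrows that of the other groups. Whether replicates were separate cultures is not labelled, so p-values may reflect technical spread only. In bulk RNA, more cells expressing a gene and more RNA per cell cannot be told apart.

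OMVSSDC was compared with PBSDC to ask how the family differed from the group taken as control. All 6 members were higher in OMVSSDC (edgeR quasi-likelihood test, adjusted p under 0.05), by fold changes between 1.24 for Oas2 and 6.84 for Oasl1. In the same comparison 63.6% of all tested genes passed, 33.4% as higher and 30.2% as lower, so passing alone sets few genes apart. The groups did not overlap for any of the 6, as for 65.7% of all tested genes (33.9% with OMVSSDC higher). Over 2-fold higher and past the threshold were 4 of the 6, Oas1a, Oas3, Oasl1 and Oasl2, against 12.9% of all tested genes. The median log2 fold change of the 6 was 1.29, beside 0.05 over all tested genes. None fell, with or without adjustment, and DESeq2 and limma-voom also called 6 higher and 0 lower. Within the other 7 libraries 5 of the 6 were called, and Oas1g was not.

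Among Oas1a, Oas1g, Oas2 and Oas3, the largest log2 fold change was that of Oas3. It stood at 501, 481 and 426 CPM in OMVSSDC, against 171, 175 and 193 CPM in PBSDC. Every OMVSSDC library was thus more than 2-fold above every PBSDC library. The log2 fold change was 1.39 (SE 0.0837, adjusted p = 4.65e-07), and it was 1.25 within the other 7 libraries and 1.45 without OMVSSDC replicate 3.

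Oas1a stood at 201 and 203 CPM in OMVSSDC replicates 1 and 2 and at 106 CPM in replicate 3, against 69.1, 75.2 and 77.8 CPM in PBSDC. All 3 OMVSSDC libraries were higher, but replicate 3 only modestly so. The log2 fold change of 1.20 (SE 0.205, adjusted p = 0.000532) was 0.52 (adjusted p = 4.18e-06) within the other 7 libraries and 1.45 without OMVSSDC replicate 3. Oas1g had 103, 105 and 65.9 CPM in OMVSSDC, against 56.6, 59.5 and 58.5 CPM in PBSDC. Replicate 3 was again the lowest of OMVSSDC, though above all PBSDC libraries. Its log2 fold change was 0.65 (SE 0.149, adjusted p = 0.00323), and within the other 7 libraries it was 0.18 and did not pass (adjusted p = 0.0595), while without OMVSSDC replicate 3 it was 0.84.

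Counted together, Oas1a and Oas1g came to 305, 308 and 172 CPM in OMVSSDC, against 126, 135 and 136 CPM in PBSDC. For the sum, an addition made after the data were seen, the log2 fold change was 0.98 with an SE of 0.182 (adjusted p = 0.000903). It was 1.21 without OMVSSDC replicate 3 (adjusted p = 1.01e-18) and 0.38 within the other 7 libraries (adjusted p = 2.53e-05), so the call for the sum held in both, but its size rested on replicates 1 and 2. Oas2 had 165, 152 and 172 CPM in OMVSSDC, against 123, 131 and 142 CPM in PBSDC. The groups did not overlap, though the gap was small, and the log2 fold change was 0.31 (SE 0.0731, adjusted p = 0.00429). It was 0.26 without OMVSSDC replicate 3 and 0.39 within the other 7 libraries, and passed in both.

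Oasl1 had the largest change in the family, and only 1.37% of tested genes had a larger log2 fold change. Its counts were 8125, 10030 and 7381 in OMVSSDC and 1341, 1117 and 1165 in PBSDC, or 549 ± 44.5 and 80.3 ± 4.35 CPM (SD, n = 3 each). The log2 fold change was 2.77 (SE 0.0799, adjusted p = 9.13e-09), 2.64 within the other 7 libraries and 2.84 without OMVSSDC replicate 3. Its neighbour Oasl2 stood at 158, 169 and 268 CPM in OMVSSDC, against 70.8, 67.5 and 75.6 CPM in PBSDC. Here replicate 3 was the highest library of OMVSSDC, whereas for Oas1a, Oas1g, Oas3 and Oasl1 it was the lowest. The log2 fold change of Oasl2 was 1.48 (SE 0.173, adjusted p = 4.03e-05), 1.20 without OMVSSDC replicate 3 and 1.91 within the other 7 libraries.

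**Figure D2:**
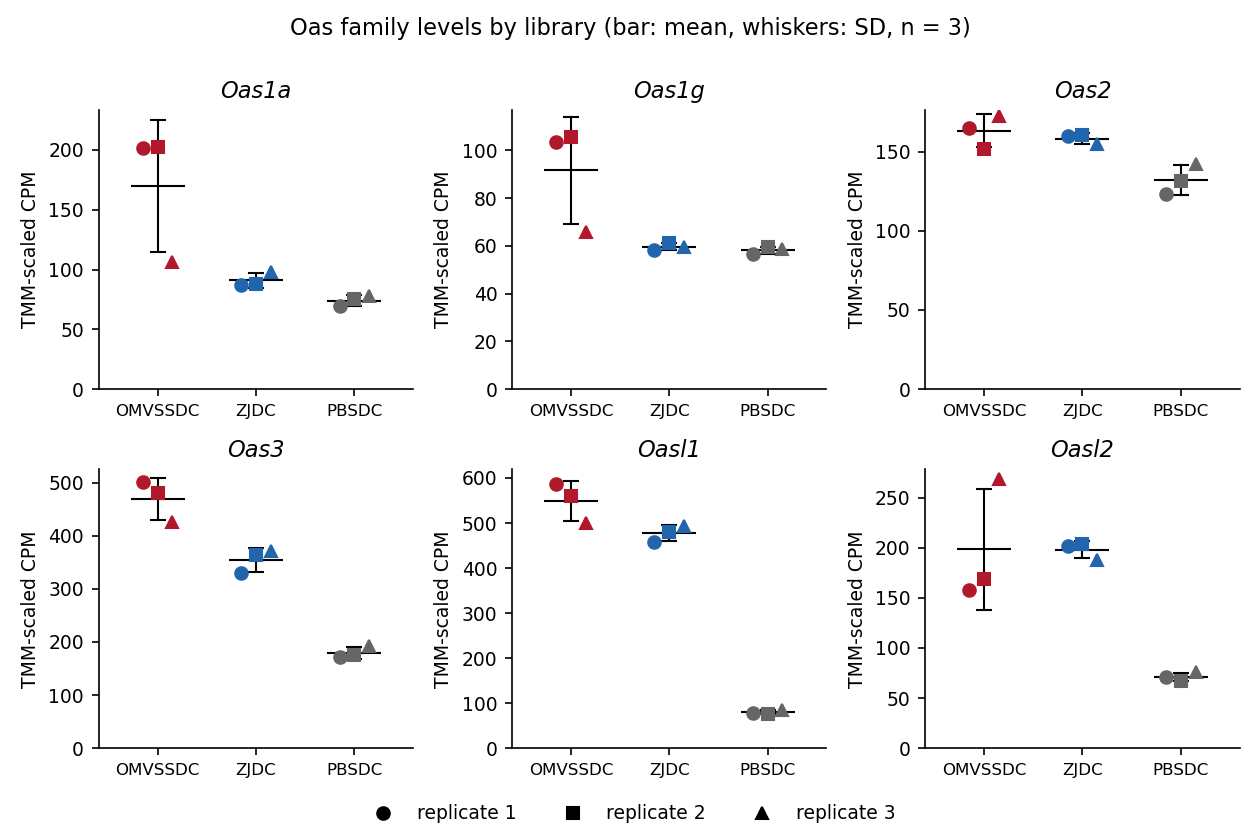
TMM-scaled CPM of the 6 members in each library (symbols mark the replicate), with the group mean as a bar and the SD as whiskers (n = 3). Replicate 3 of OMVSSDC lies near the ZJDC libraries for Oas1a and Oas1g (106 and 65.9 CPM) and above all other libraries for Oasl2 (268 CPM), while the PBSDC libraries are lowest for Oas3, Oasl1 and Oasl2.

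Other measures moved with the division inside OMVSSDC. The summed level of 14 heart and brain marker genes was 7.14 and 7.15 CPM in OMVSSDC replicates 1 and 2 and 26.3 CPM in replicate 3, against 21.3 to 28.9 CPM in ZJDC and 38.0 to 41.6 CPM in PBSDC. All 14 had counts in OMVSSDC and ZJDC and 13 in PBSDC. The sums hide differences between genes. Tnnt2 alone averaged 3.78, 6.38 and 19.4 CPM in OMVSSDC, ZJDC and PBSDC. Others, such as Myl2 (0.736, 2.62 and 2.21) and Tnni3 (2.21, 2.88 and 2.79 CPM), were highest in ZJDC. Mitochondrially encoded genes took 1.81%, 1.86% and 4.44% of counts in OMVSSDC, 4.60% to 5.72% in ZJDC and 6.89% to 7.84% in PBSDC. Genes of ribosomal proteins took 3.60%, 3.53% and 2.43% of counts in OMVSSDC, 2.38% to 2.57% in ZJDC and 2.22% to 2.25% in PBSDC. The 6 markers of fibroblasts and endothelium summed to 10.2 to 23.8 CPM in OMVSSDC, 14.4 to 17.7 CPM in ZJDC and 26.1 to 29.0 CPM in PBSDC. All 6 had counts in each group, but they did not move together. Pecam1 averaged 3.91, 4.19 and 15.3 CPM in OMVSSDC, ZJDC and PBSDC, while Pdgfra went the other way at 6.17, 5.02 and 2.65 CPM. The part of any of these in the levels of the Oas genes was not tested. The 5 epithelial markers summed to at most 0.511 CPM in any library, with Krt19 at 0 throughout, and the 6 markers of T, B and NK cells to at most 1.15 CPM, with Cd3e, Cd3g and Ncr1 at 0.

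ZJDC was compared with PBSDC to ask how the family differed between this group of DC2.4 libraries and the group taken as control. The comparison shares its PBSDC libraries with the one above. Of the 6 members 4 were higher, Oas2, Oas3, Oasl1 and Oasl2, and none fell with or without adjustment (edgeR; DESeq2 and limma-voom gave the same 4 and 0). Of all tested genes 54.7% passed, 27.6% as higher and 27.1% as lower. ZJDC lay above PBSDC without overlap for 5 members, all but Oas1g, while the groups did not overlap for 72.2% of all tested genes (36.2% with ZJDC higher). Only Oasl1 and Oasl2 were over 2-fold higher, against 9.18% of all tested genes. The median log2 fold change of the 6 was 0.64, beside 0.01 over all tested genes.

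Oasl1 again had the largest change, with 459, 480.3 and 494 CPM in ZJDC, against 79.1, 76.6 and 85.1 CPM in PBSDC. The log2 fold change was 2.57 (SE 0.0794, adjusted p = 1.56e-08), a 5.95-fold higher level. Oasl2 had 202, 204 and 188 CPM in ZJDC and 71.3 ± 4.07 CPM in PBSDC, and it was higher by 1.47 on the log2 scale (SE 0.173, adjusted p = 5.73e-05). Both synthetase-like genes were far outside the PBSDC range in every ZJDC library. Oas3 had 329.7, 363 and 372 CPM in ZJDC and 179.6 ± 11.6 CPM in PBSDC, a difference of 0.98 on the log2 scale (SE 0.0831, adjusted p = 6.22e-06).

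Oas2 differed less, with 159.7, 161 and 155 CPM in ZJDC and 132 ± 9.45 CPM in PBSDC. Its log2 fold change of 0.26 (SE 0.0730, adjusted p = 0.0117) no longer passed without PBSDC replicate 1 (adjusted p = 0.0559), the lowest PBSDC library. Oas1a had 87.5, 87.5 and 98.3 CPM in ZJDC, above all PBSDC libraries, yet did not pass in the fit of all 9 libraries (log2 fold change 0.30, SE 0.204, adjusted p = 0.238). That fit takes part of its spread from OMVSSDC. With ZJDC and PBSDC alone the change was 0.30 (SE 0.0602) and passed (adjusted p = 6.76e-05), as it did without OMVSSDC replicate 3 (adjusted p = 2.15e-05) and within the other 7 libraries (adjusted p = 6.69e-05). Of the 11568 tested genes, 4051 were called higher and 4023 lower with ZJDC and PBSDC alone. Without OMVSSDC replicate 3 these were 4119 and 4076, so passing sets few genes apart in either fit. Oas1g had 58.1, 61.2 and 59.5 CPM in ZJDC, overlapping PBSDC. Its log2 fold change in the fit of all 9 libraries was 0.03 (adjusted p = 0.861) with a 95% interval from -0.30 to 0.37. For the summed count of Oas1a and Oas1g the log2 fold change was 0.19, which did not pass (adjusted p = 0.401). It was 0.19 as well without OMVSSDC replicate 3 and within the other 7 libraries, where it passed (adjusted p = 0.000569 and 0.00128).

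OMVSSDC was set against ZJDC to test where these 2 groups differed. Oas3 was the only member that passed, with 469 ± 38.9 CPM in OMVSSDC and 355 ± 22.4 CPM in ZJDC, higher by 0.40 on the log2 scale (SE 0.0820, adjusted p = 0.0450). Of all tested genes 1.95% passed, 0.856% as higher and 1.1% as lower, and 0.0778% were over 2-fold higher, none of the members among them. The groups did not overlap, but the call was fragile. It was lost without any 1 of the libraries other than OMVSSDC replicate 3 (adjusted p = 0.0768 to 0.204), and it held without that replicate (3.91e-08) and within the other 7 libraries (0.0402). In the fit of all 9 libraries no member was lower with or without adjustment, and at an unadjusted p under 0.05, 4 members were higher. At that unadjusted threshold 1992 of the 11568 tested genes were higher and 1683 lower. Without OMVSSDC replicate 3, 3244 of all tested genes were higher and 3271 lower at an adjusted p under 0.05.

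In 4 members, Oas1a, Oas1g, Oas3 and Oasl1, all 3 OMVSSDC libraries lay above all ZJDC libraries, as in 11.7% of all tested genes, and groups did not overlap in either direction for 24% of them. Oas1a and Oas1g came close to the threshold. Their log2 fold changes were 0.90 (95% interval 0.45 to 1.35, adjusted p = 0.0545) and 0.62 (0.29 to 0.95, adjusted p = 0.0562). The difference was carried by replicates 1 and 2. Without replicate 3, when 3244 of all tested genes were called higher and 3271 lower, the values were 1.15 and 0.81 (adjusted p = 8.35e-15 and 4.12e-12). Within the other 7 libraries they were 0.22 and 0.15. DESeq2 called both (adjusted p = 0.00138 and 0.00547). Their sum was at 0.80 (adjusted p = 0.0561), at 1.02 without replicate 3 (adjusted p = 2.11e-15) and at 0.19 within the other 7 libraries (adjusted p = 0.152). Oasl1 was at 0.20 on the same scale (interval 0.03 to 0.37, adjusted p = 0.112), and passed without OMVSSDC replicate 3 (0.26, adjusted p = 1.58e-05) but not within the other 7 libraries (0.06).

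Oas2 overlapped between OMVSSDC and ZJDC and did not pass, with a log2 fold change of 0.04 and an interval from -0.12 to 0.21. Leaving out OMVSSDC replicate 3 gave 0.00 and the other 7 libraries gave 0.12, and neither passed. Oasl2 had nearly equal means, 198 ± 60.7 CPM in OMVSSDC and 198 ± 8.55 CPM in ZJDC, and a log2 fold change of 0.00 with a wide interval from -0.37 to 0.37. That mean hid a split by library. Without OMVSSDC replicate 3 Oasl2 was lower in OMVSSDC (-0.28, adjusted p = 7.55e-05), and within the other 7 libraries it was higher (0.44, adjusted p = 0.000266).

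**Figure D3:**
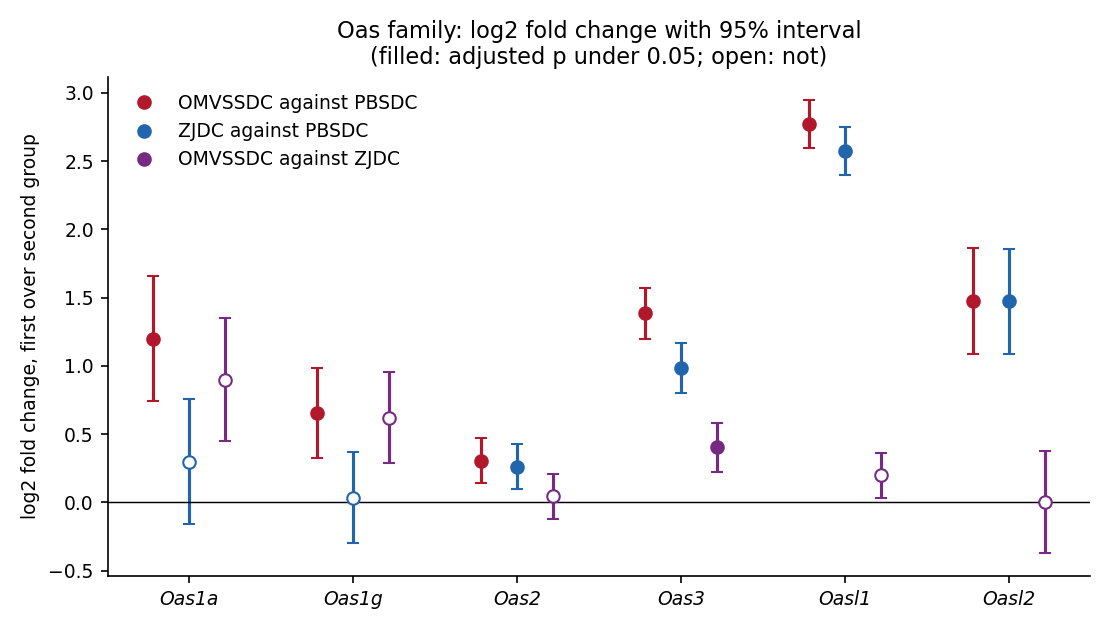
Log2 fold changes of the 6 members in the 3 comparisons, with 95% intervals; filled points passed at an adjusted p under 0.05. Oasl1 lies highest in both comparisons with PBSDC (2.77 and 2.57), while Oas1a and Oas1g passed for OMVSSDC against PBSDC and not for ZJDC against PBSDC.

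Levels of different members can be compared only per length, for which the deposited FPKM values were used. These divide by the deposited gene length. For some genes it is longer than the longest protein-coding transcript (6374 against 3123 bases for Oasl2, 7069 against 4720 for Oas3, but 1885 for both in Oas1a). The levels of the longer models are thus understated relative to the others. Orders, shares and ratios between members hold for the deposited lengths only, and other lengths could change the orders in each group. In OMVSSDC, Oasl1 was the most abundant member at 220.2 ± 24.6 FPKM (SD, n = 3), ahead of Oas1a at 94.9 ± 33.3 and Oas3 at 69.5 ± 7.88 FPKM, whose ranges overlapped. Oas1g (41.1 ± 11.1), Oas2 (38.3 ± 1.64) and Oasl2 (32.3 ± 8.69 FPKM) followed, also with overlapping ranges.

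In ZJDC, Oasl1 led at 183 ± 9.02 FPKM, and Oas3 (50.3 ± 3.73) and Oas1a (48.3 ± 3.86 FPKM) overlapped behind it. Oas2, Oasl2 and Oas1g came next at 35.6 ± 0.447, 31.1 ± 1.05 and 25.5 ± 0.825 FPKM. At the deposited lengths their ranges did not overlap. In PBSDC the order was another: Oas1a led at 37.6 ± 2.35 FPKM, Oasl1 (29.4 ± 1.64) and Oas2 (28.4 ± 2.09 FPKM) overlapped behind it, then Oas3 (24.3 ± 1.62) overlapped with Oas1g (23.8 ± 0.637 FPKM), and Oasl2 was lowest at 10.7 ± 0.624 FPKM.

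The make-up of the family thus shifted along with its sum. The 6 members added up to 541, 529 and 419 FPKM in OMVSSDC and 357, 376 and 389 FPKM in ZJDC, against 147, 153 and 163 FPKM in PBSDC. Oasl1 made up 43.3% to 45.9% of that sum in OMVSSDC and 48.7% to 49.3% in ZJDC, against 18.4% to 19.7% in PBSDC. Oas1a, Oas1g, Oas2 and Oas3 took smaller shares in OMVSSDC and ZJDC than in PBSDC. Oas1a took 13.5% to 21.7% in OMVSSDC and 12.3% to 13.6% in ZJDC, against 23.8% to 25.0% in PBSDC. For Oas1g these were 6.76% to 9.09%, 6.62% to 6.95% and 14.7% to 15.9%. For Oas2 they were 6.88% to 9.29%, 9.05% to 9.93% and 17.9% to 18.8%. For Oas3 they were 13.7% to 14.4%, 12.9% to 13.7% and 15.5% to 16.1%. The share of Oasl2 was 4.88% to 10.1% in OMVSSDC and 7.69% to 8.78% in ZJDC, against 6.64% to 7.20% in PBSDC. The ratio of Oasl1 to its neighbour Oasl2 was 9.06, 8.12 and 4.55 in OMVSSDC and 5.55, 5.76 and 6.42 in ZJDC, against 2.73, 2.77 and 2.75 in PBSDC. That ratio was thus nearly constant across the PBSDC libraries and higher in every OMVSSDC and ZJDC library, with the widest spread in OMVSSDC. The ratio of Oas1a to Oas1g, which rests on the uncertain split of shared reads, was 2.42, 2.38 and 2.0 in OMVSSDC and 1.87, 1.77 and 2.05 in ZJDC, against 1.52, 1.57 and 1.65 in PBSDC.

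**Figure D4:**
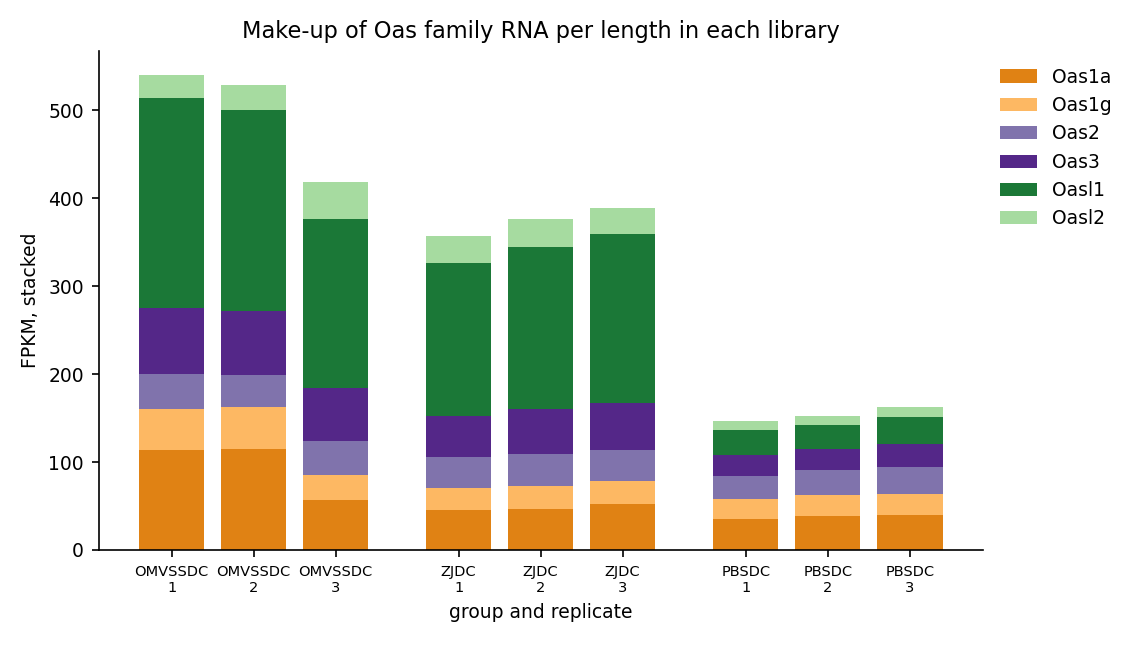
Deposited FPKM of the 6 members stacked for each library, with groups from left to right. The stacks reach 419 to 541 FPKM in OMVSSDC and 357 to 389 FPKM in ZJDC, against 147 to 163 FPKM in PBSDC. The Oasl1 segment takes the largest part of every OMVSSDC and ZJDC library.

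The other genes of the pathway were taken from a list of 35, of which 28 passed the filter on low counts. In OMVSSDC against PBSDC 12 were higher, 8 were lower and 8 did not pass, with a median log2 fold change of 0.17. As shares of the 28 these stand beside 33.4% higher and 30.2% lower of all tested genes. In ZJDC against PBSDC 14 were higher, 6 lower and 8 did not pass, with a median of 0.24, beside 27.6% higher and 27.1% lower of all tested genes. Calls in both directions were thus common in all genes, and whether the list differs from the 6 members or from all genes was not tested. In OMVSSDC against ZJDC only Irf7 passed (0.53, adjusted p = 0.0127). That call was lost without any 1 of the ZJDC libraries or without OMVSSDC replicate 1 or 2 (adjusted p = 0.0617 to 0.138). At an unadjusted p under 0.05, 9 of the 28 were higher and 4 lower there, beside 1992 and 1683 of the 11568 tested genes.

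Of the 6 further Oas1 copies, 3 passed the filter and all 3 were higher in both comparisons with PBSDC. Of all tested genes 33.4% were higher in OMVSSDC and 27.6% in ZJDC against PBSDC. Oas1h had only 3, 12 and 8 counts in PBSDC, against 33 to 79 in OMVSSDC and 25 to 32 in ZJDC. It thus passed the filter through the groups where it was high, so its calls are no separate support. Oas1c had log2 fold changes of 1.52 and 1.06 and Oas1h of 2.75 and 1.75 in OMVSSDC and ZJDC against PBSDC. Oas1b, which carries a premature stop codon in many laboratory strains, had 1.27 (SE 0.212) and 0.58 (SE 0.217), the second just past the threshold (adjusted p = 0.0442) with ZJDC and PBSDC libraries that overlapped. In OMVSSDC against PBSDC, Oas1b, Oas1c and Oas1h were at 1.42, 1.59 and 2.99 without OMVSSDC replicate 3 and at 0.91, 1.35 and 2.11 within the other 7 libraries, and passed in both. The ZJDC call of Oas1b was lost without OMVSSDC replicate 2, PBSDC replicate 1 or 2 or ZJDC replicate 2 or 3 (adjusted p up to 0.151). All 3 stayed far below the 6 members, at most 7.62 FPKM in any library. Oas1d, Oas1e and Oas1f had at most 8 counts in any library. Oas1e and Oas1f had 1 to 8 counts in every OMVSSDC and ZJDC library and 0 in all 3 PBSDC libraries. A count of 0 still allows 3 counts, or 0.177 to 0.219 CPM in PBSDC (counting error only).

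The list holds 3 measured genes that regulate the pathway or degrade its messengers. Abce1, an ATPase of ribosome recycling, was lower in both comparisons, by log2 fold changes of -0.71 in OMVSSDC (adjusted p = 0.000218) and -0.45 in ZJDC (adjusted p = 0.00489) against PBSDC, and in OMVSSDC by -0.87 without replicate 3 and -0.45 within the other 7 libraries. Akap7, one form of which degrades oligoadenylates in mice, was higher by 0.84 and 1.02, and in OMVSSDC by 0.54 without replicate 3 and 1.30 within the other 7 libraries. Pde12, a phosphodiesterase that degrades them in human cells, was lower in OMVSSDC (-0.30, adjusted p = 0.0272), a call lost without OMVSSDC replicate 1 or 2 or PBSDC replicate 1 or 3 (adjusted p up to 0.108) and within the other 7 libraries (-0.21, adjusted p = 0.125) but kept without replicate 3 (-0.35). It did not pass in ZJDC (-0.24, adjusted p = 0.0721).

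Of the 10 genes of nucleic acid sensing 4 were higher, 5 lower and 1 did not pass in OMVSSDC against PBSDC, where 33.4% and 30.2% of all tested genes were higher and lower. In ZJDC against PBSDC 4 were higher, 4 lower and 2 did not pass, beside 27.6% and 27.1%. Ifih1 (MDA5), Ddx58 (RIG-I) and Dhx58 (LGP2), which sense viral RNA in the cytoplasm, and Zbp1, which binds left-handed nucleic acids, were higher in both comparisons. Their log2 fold changes were 1.26, 0.58, 1.51 and 1.48 in OMVSSDC and 1.27, 0.70, 0.97 and 1.17 in ZJDC against PBSDC. In OMVSSDC they were 1.15, 0.41, 1.68 and 1.41 without replicate 3 and 1.45, 0.87, 1.10 and 1.61 within the other 7 libraries, and all passed. Eif2ak2, the RNA-activated kinase PKR, was lower at -0.55 and -0.34, and so was Cgas, the DNA sensor of the same enzyme fold as the synthetases, at -0.84 and -0.42. Mavs (-0.26 and -0.32) and Sting1 (-0.54 and -0.41), which pass on the signals of the RNA and DNA sensors, were lower too. In ZJDC the calls were lost without single libraries, for Eif2ak2 without any of the 6 ZJDC and PBSDC libraries (adjusted p up to 0.119) and for Cgas without any PBSDC library or ZJDC replicate 2 or 3 (up to 0.106). In OMVSSDC the decreases of Eif2ak2 and Cgas were larger without replicate 3, at -0.74 and -1.06, and smaller within the other 7 libraries, at -0.23 and -0.48, and still passed. Mavs and Sting1 were at -0.30 and -0.56 without replicate 3 and at -0.20 and -0.50 within the other 7 libraries, and passed in both. Tlr3, the endosomal receptor for double-stranded RNA, was lower in OMVSSDC (-0.47, adjusted p = 0.0320) but overlapped PBSDC. It stood at -0.74 without replicate 3 and at -0.05 within the other 7 libraries (adjusted p = 0.705), did not pass without OMVSSDC replicate 1 or 2 or any 1 PBSDC library (adjusted p = 0.0521 to 0.110), and was at 0.01 in ZJDC (adjusted p = 0.947). Adar, which edits double-stranded RNA, did not pass in either (0.03 and -0.14), but passed as lower in OMVSSDC within the other 7 libraries (-0.18, adjusted p = 0.0478), and was at 0.12 without replicate 3 (adjusted p = 0.0577).

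Among the transcription factors that act on such genes, Irf7 had the largest change. It stood at 652, 644 and 624 CPM in OMVSSDC and 450.3, 432 and 449 CPM in ZJDC, against 151, 148 and 169.9 CPM in PBSDC, so that the 3 groups did not overlap. Its log2 fold changes against PBSDC were 2.04 (SE 0.0685, adjusted p = 1.65e-08) and 1.51 (SE 0.0675, adjusted p = 1.44e-07). Irf1, another activator of interferon target genes, rose by 1.11 and 0.72. In OMVSSDC Irf7 was at 2.05 without replicate 3 and at 2.0 within the other 7 libraries, and Irf1 at 1.29 and 0.65, and all passed. Stat2 passed in ZJDC (0.31, adjusted p = 0.0282), though not without any 1 of its 6 libraries (up to 0.0824), and not in OMVSSDC (0.25, adjusted p = 0.0575), where it was at 0.10 without replicate 3 (adjusted p = 0.112) and passed within the other 7 libraries (0.51). Irf9, a DNA-binding subunit of the complex that recognises the interferon-stimulated response element, did not pass in either (0.09 and 0.14), nor did Irf2 and Irf3. In OMVSSDC Irf9 passed within the other 7 libraries (0.21, adjusted p = 0.0438) and not without replicate 3 (0.04). There Irf2 and Irf3 passed without replicate 3, at -0.60 and 0.45, and not within the other 7 libraries, at 0.13 and -0.08.

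Of the receptor chains and their kinases, Ifnar2 (0.40 and 0.25) and Tyk2 (0.50 and 0.31) were higher in both comparisons, and Ifngr1, a chain of the interferon gamma receptor, was lower (-0.43 and -0.24). In OMVSSDC these were 0.40, 0.58 and -0.50 without replicate 3 and 0.40, 0.35 and -0.30 within the other 7 libraries, in the order Ifnar2, Tyk2 and Ifngr1, and all passed. Ifnar1 was higher in ZJDC (0.25, adjusted p = 0.0175) and had 0.10 in OMVSSDC (adjusted p = 0.263), with 0.02 without replicate 3 and 0.24 within the other 7 libraries, where it passed. The ZJDC calls of Ifnar1 and Ifngr1 were lost without single libraries. For Ifnar1 these were PBSDC replicate 3 and ZJDC replicates 1 and 2 (adjusted p up to 0.0741), and for Ifngr1 replicates 1 and 2 of both groups and OMVSSDC replicate 1 (up to 0.149). Ifngr2 and Jak1 did not pass in either comparison, though in OMVSSDC Jak1 passed without replicate 3 (-0.13) and Ifngr2 within the other 7 libraries (0.18). The interferon genes themselves were barely seen. The counts of Ifnb1 were 1, 0 and 0 for OMVSSDC and 0, 0 and 0 for ZJDC, against 1, 2 and 0 for PBSDC, and Ifna2, Ifna4 and Ifng had 0 counts in all 9 libraries, which allows up to 0.161 to 0.235 CPM.

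**Figure D5:**
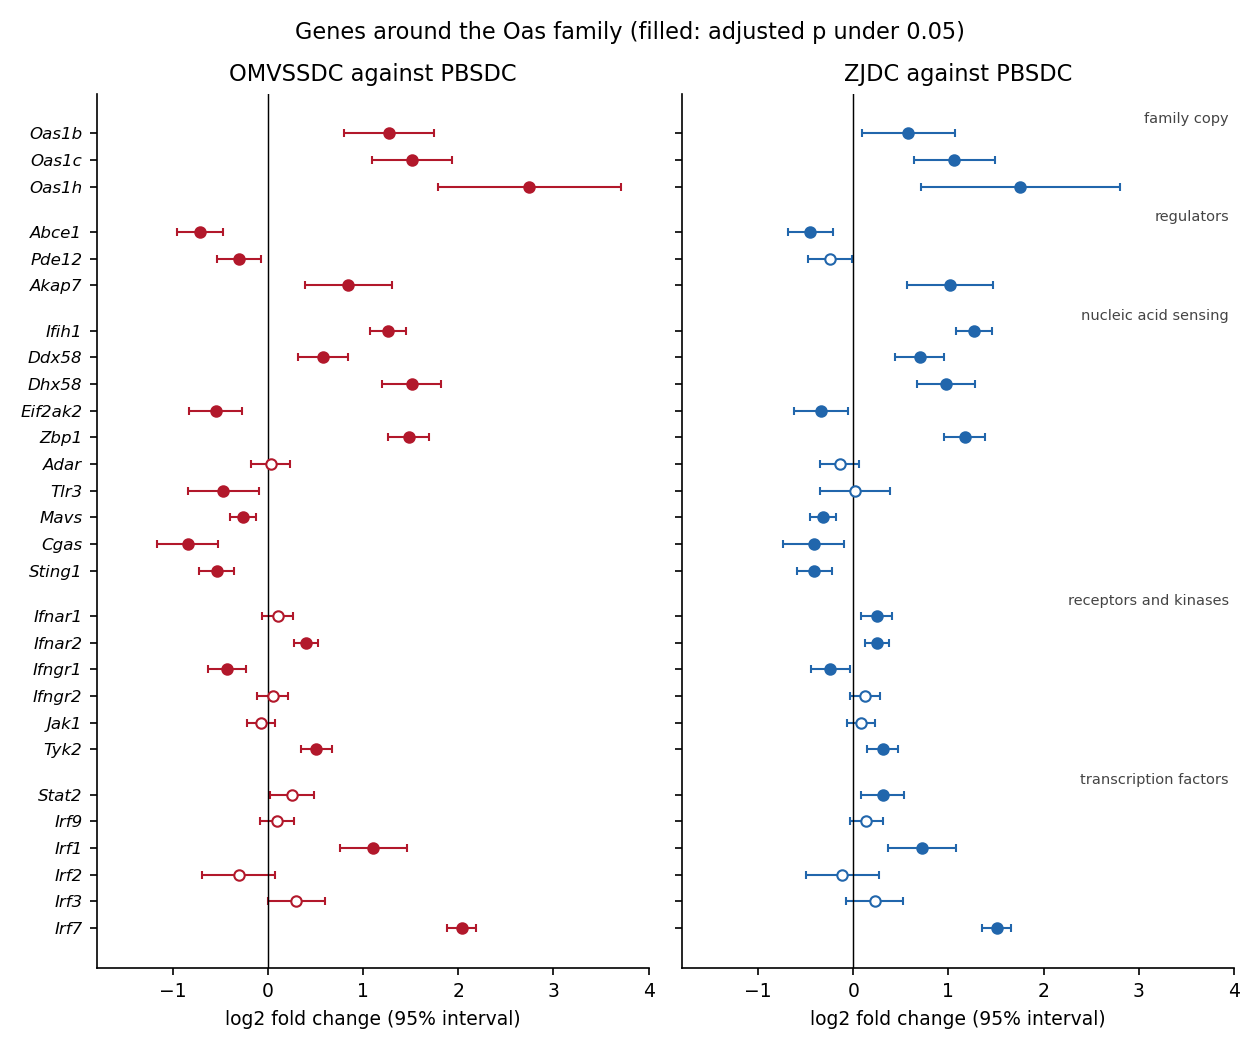
Log2 fold changes with 95% intervals of the 28 measured pathway genes in OMVSSDC (left) and ZJDC (right) against PBSDC, by role; filled points passed at an adjusted p under 0.05. The Oas1 copies, the RNA helicases and Irf7 lie to the right of 0 in both panels and Abce1, Eif2ak2, Mavs, Cgas and Sting1 to the left.

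Genes whose levels followed the family most closely were ranked by Pearson's r of log2 CPM over the 9 libraries, among 9474 named genes with a mean of at least 5 CPM. For the mean profile of the 6 members these were Slfn4 (r = 0.999), H2-T22 (0.999), Mb21d2 (0.998), Hilpda (0.998) and Slc48a1 (0.998). Such values are a description, since the 3 groups stand apart and 977 genes had an r over 0.95. For single members the closest genes were Ppib for Oas1a (0.992), Usp20 for Oas1g (0.989), Bhlhe40 for Oas2 (0.969), Irf2bpl for Oas3 (0.998), Aqp9 for Oasl1 (0.9997) and Cpeb4 for Oasl2 (0.998). Aqp9, a water and glycerol channel, averaged 458 CPM in OMVSSDC and 407 CPM in ZJDC, against 81.0 CPM in PBSDC. Slfn4, a Schlafen gene induced by interferons in mouse myeloid cells, averaged 1274 CPM in OMVSSDC and 902 CPM in ZJDC, against 344 CPM in PBSDC.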

How the data were processed

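Total RNA of DC2.4 cells was sequenced in 9 libraries, which were grouped by title. The submitters' processing notes name fastp 0.22.0, HISAT2 2.1.0 and HTSeq 0.9.1, per the labels; no source names the genome build, the annotation or the strand setting. The deposited table holds read counts per gene, which the authors left unnormalized, and FPKM; each deposited FPKM equalled the count scaled by library total and by the deposited length, within 0.1%. All columns with sample values were used.

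Tests on counts used edgeR 4.0.16 under R 4.3.3: filterByExpr (minimum count 10, minimum total count 15), TMM, and a robust quasi-likelihood model with 1 coefficient per group over all 9 libraries (6 residual degrees of freedom). Contrasts were tested two-sided and adjusted by Benjamini-Hochberg over 11568 genes, and a gene passed under 0.05. Each SE was derived from the log2 fold change and the F statistic. The pipeline was tested on simulated data. Alternatives were RLE scaling, library size alone, other filters, DESeq2 1.42.0, limma-voom (limma 3.58.1), fewer libraries, a replicate block and, added after the data were seen, the summed count of Oas1a and Oas1g. FPKM were used without a test, to compare genes. All 6 members, the 35 genes of the pathway list, the marker lists and the genes closest by Pearson's r (log2 CPM, prior count 2) were named by rule. The members and lists were chosen with earlier results of these data known. A further 2 genes of the pathway list are not reported here, and its counts are over the other 35. Sequences are RefSeq promoter windows (GRCm38.p6) and GENCODE M21 transcripts, aligned locally with Biopython 1.88; coordinates of the table and of RefSeq were kept apart. Library totals of 12784931 to 18388959 counts put the upper limit behind a 0, taken as 3 counts, at 0.161 to 0.235 CPM.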

Additional observations from a re-analysis of the deposited data

How the results depend on the processing

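The 18 member results were compared 342 times with results under other settings. Of these, 314 kept their direction and their side of the threshold, 15 gained a call, 12 lost one and 1 turned direction with a call. The 342 include fits that left out a library outside the comparison. They also include the summed count of Oas1a and Oas1g, set against each of the pair. In OMVSSDC against PBSDC 5 or 6 members were called higher under every setting run, and in ZJDC against PBSDC 3 to 5, with 0 lower; no unadjusted p under 0.05 pointed lower either. Scaling by library size alone moved the median log2 fold change of all genes by 0.13 in OMVSSDC against PBSDC, and the members kept their calls and directions; of the pathway list Mavs (-0.14), Pde12 (-0.17) and Tlr3 (-0.35) no longer passed there, nor did Eif2ak2 (-0.27) and Ifngr1 (-0.18) in ZJDC against PBSDC. The comparison of OMVSSDC with ZJDC depended most on the setting, and the cause was not tested. All genes called there, 99 higher and 127 lower, were 115 and 91 with library size alone, 766 and 804 with DESeq2, 156 and 205 within the other 7 libraries, 0 and 0 with only those 6 libraries (1489 and 1084 at an unadjusted p under 0.05) and 0 and 0 with a replicate block (1551 and 1404); with 1 library left out they ranged from 0 to 3244 higher and from 0 to 3271 lower, the highest without OMVSSDC replicate 3. Members called higher there were 1 in the analysis as reported, 3 with DESeq2, 2 within the other 7 libraries, 0 with only 6 libraries, 0 with a replicate block and 0 to 4 with 1 library left out, and members called lower were 0 to 1; at an unadjusted p under 0.05 the edgeR fits with only 6 libraries and with a replicate block had 4 and 3 higher and 0 lower. Oasl2 turned to -0.28 without OMVSSDC replicate 3, within a left-out range of -0.28 to 0.14. Of the pathway list, higher genes there were 4 with DESeq2, 2 within the other 7 libraries, 0 with only 6 libraries (6 unadjusted), 0 with a replicate block (9 unadjusted) and 0 to 11 with 1 library left out, and lower genes 2 with DESeq2 and 0 to 13 with 1 left out. With library size alone the pathway list had 17 higher and 5 lower in OMVSSDC and 17 and 4 in ZJDC against PBSDC, when all genes had 4672 and 2819 in OMVSSDC and 3631 and 2718 in ZJDC, beside 3866 and 3492 and 3193 and 3130 as reported. Lower pathway genes in ZJDC against PBSDC were 3 with a replicate block and 3 to 8 with 1 library left out. The level of Oas1g in PBSDC was 55.7 CPM of the library total. The labels do not state whether the replicate numbers pair the samples. Deviations of same-numbered libraries from their group means correlated at -0.39 to 0.09, and 3 of 9 were best matched by their own number. With 3 libraries a group, and OMVSSDC replicate 3 standing apart, such a check cannot exclude a pairing. With the replicate block Oas3 in OMVSSDC against ZJDC had an adjusted p of 0.143, and all genes called were 3566 higher and 3301 lower in OMVSSDC and 2957 and 2820 in ZJDC against PBSDC. The sum of Oas1a and Oas1g was added after the data were seen. Depth limits statements on Oas1d, Oas1e, Oas1f and the interferon genes.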
